A study of Mus musculus with 21 samples.

Results

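T cells lacking TET2 and TET3 that had passed through a second recipient mouse were compared with such cells after a first recipient. The 7 libraries titled as second transplantation (TX2, replicates 1 to 7) and the 4 titled as first transplantation (TX1, replicates 1 to 4) were chosen by their titles, and are 11 of the 21 RNA-seq libraries of the series. All 11 carry the genotype Tet2-/-Tet3flx/flxCD4cre (double knockout, DKO): Tet2 is disrupted in every cell of the donor, while Tet3 is deleted where the CD4cre transgene is active, that is, in T cells and in their descendants. TX2 cells came from recipients of DKO CD4 cells that had gone through 2 rounds of transplantation, and TX1 cells from recipients after 1 round. The donor cells carry the CD45.2 form of the leukocyte antigen CD45 and the recipients the CD45.1 form. From spleen, live cells that were CD45.2+ and CD45.1- were collected by cell sorting at a stated purity above 98%, and the labels add TCRb+. TX2 replicates 1 to 4 are labelled male and 5 to 7 female, and TX1 replicates 1, 2 and 4 male and 3 female. The labels give no age, no time in the recipient and no link between a library and a donor or recipient animal, so p-values below measure the spread between these samples. The other 10 libraries are freshly sorted T cells of 5 DKO and 5 wild type (WT) mice and are used only where stated.

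TET enzymes oxidise 5-methylcytosine in DNA, a step toward loss of the mark at enhancers and genes, and their loss in T cells is known to lead to expansion of the cells. Serial transfer asks whether cells keep expanding outside the animal they arose in. The T cell receptor that a cell rearranged in the thymus is handed down to its descendants, so the CDR3, the joint of the V, (D) and J segments that contacts antigen, marks a lineage.

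The 7 TX2 libraries held 2 receptors, and 1 of these was also that of a TX1 library. TX2 replicates 1 to 4 shared 1 in-frame alpha chain (TRA) and 1 in-frame beta chain (TRB), called line B here. TX2 replicates 5 to 7 shared another pair, and TX1 replicate 3 carried the same one (line A). TX1 replicates 1, 2 and 4 each had a receptor of their own. The CDR3 sequences of both lines and of TX1 replicate 4, whose alpha chain uses the V segment of line B with another J segment, are printed because the grouping of the libraries rests on them. They are read 5′ to 3′ from the deposited clonotype tables, the TRA locus lies on chromosome 14 and the TRB locus on chromosome 6, and capitals mark bases between the end of V and the start of J.
Line A TRA TRAV8N-2 TRAJ18: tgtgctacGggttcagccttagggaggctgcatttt
Line A TRA TRAV6-5 TRAJ50 (out of frame): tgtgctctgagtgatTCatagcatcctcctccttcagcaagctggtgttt
Line A TRB TRBV13-2 TRBJ2-3: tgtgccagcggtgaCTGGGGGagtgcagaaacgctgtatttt
Line A TRB TRBV4 TRBJ2-5 (out of frame): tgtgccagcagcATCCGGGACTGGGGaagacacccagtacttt
Line B TRA TRAV9N-3 TRAJ23: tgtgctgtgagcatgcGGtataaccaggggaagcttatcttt
Line B TRA TRAV5-4 TRAJ24 (out of frame): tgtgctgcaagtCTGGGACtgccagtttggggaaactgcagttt
Line B TRB TRBV13-3 TRBJ1-1: tgtgccagcagtgatacagaagtcttcttt
TX1 replicate 4 TRA TRAV9N-3 TRAJ21: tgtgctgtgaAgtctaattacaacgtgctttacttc
An out-of-frame joint cannot encode a receptor chain, and all 4 joints of line A recurred base for base in its 4 libraries.

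In line A the TRAV8N-2/TRAJ18 chain made up 85.6, 83.2 and 88.1% of TRA reads in TX2 replicates 5, 6 and 7, against 84.1% in TX1 replicate 3 (95% exact binomial interval 82.7 to 85.5%). The TRBV13-2/TRBJ2-3 chain made up 89.6, 90.6 and 90.2% of TRB reads in TX2 replicates 5, 6 and 7, against 89.3% in TX1 replicate 3 (interval 88.6 to 90.0%). The out-of-frame TRAV6-5/TRAJ50 joint took 14.2, 16.8 and 11.7% in TX2 replicates 5, 6 and 7, against 15.9% in TX1 replicate 3. Nearly all receptor reads of these 4 libraries thus fell on 1 pair of alleles per chain. In line B the TRAV9N-3/TRAJ23 chain took 95.1 to 95.7% of TRA reads and the TRBV13-3/TRBJ1-1 chain 99.74 to 99.97% of TRB reads in TX2 replicates 1 to 4. Of the TX1 libraries, replicate 4 held reads of the line B receptor, 6 of 5651 TRA reads (0.106%, interval 0.0390 to 0.231%) and 11 of 3763 TRB reads (0.292%, interval 0.146 to 0.522%). TX1 replicates 1, 2 and 3 had 0 such reads, which allows shares of up to 0.0643, 0.0915 and 0.114% of TRA reads. Among the freshly sorted libraries, DKO replicate 5 had 1 read and WT replicate 4 had 2 reads of the line B alpha chain. The line A alpha chain had 1 read each in DKO replicates 4 and 5 and WT replicate 5, and the line A TRBV13-2/TRBJ2-3 chain 1 read in WT replicate 4. All of these libraries are of the set that was high for the ribosomal gene described below. Whether the reads in TX1 replicate 4 came from a minor clone or from another library was not tested. The most abundant TRA chain took 83.2, 75.4 and 88.1% in TX1 replicates 1, 2 and 4. Intervals and floors cover counting error only.

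The most abundant TRA clonotype took 91.2 ± 5.43% of reads in TX2 and 82.7 ± 5.34% in TX1 (SD, n = 7 and 4), a difference of 8.52 percentage points with p = 0.0606 in a two-sided exact permutation test (0.206 after adjustment over 4 tests). For TRB the shares were 95.7 ± 5.22% in TX2 and 90.0 ± 3.58% in TX1, a difference of 5.70 points with an exact permutation p of 0.103 (adjusted 0.206). The TX2 shares fall into the values of the 2 lines rather than around 1 mean. Drawn to an equal 2633 TRA reads, TX2 libraries held 4.54 ± 1.69 clonotypes and TX1 libraries 5.18 ± 3.13. The test was run on log10 numbers, whose means differed by −0.00726 (exact permutation p = 0.988). At 3763 TRB reads the numbers were 3.76 ± 1.72 in TX2 and 3.77 ± 1.24 in TX1. Their log10 means differed by −0.0176 (exact permutation p = 0.855). The second TRA joint was out of frame in every library. It took 9.79, 24.5, 15.9 and 11.5% of reads in TX1 replicates 1 to 4. In TX2 it took 4.13 to 4.84% in replicates 1 to 4 and 11.7 to 16.8% in replicates 5 to 7. Such a joint lowers the top share without a second clone, so the share does not measure clonality alone. TX1 libraries were already dominated by 1 receptor each, and no difference between the transfers in the 4 tests passed the adjusted threshold.

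Assigned reads ranged from 28221208 to 30730877 in the 11 libraries, and levels are given as CPM, read counts scaled to library size and by TMM factors. Over 11250 genes, log2 CPM correlated at r = 0.998 between TX2 replicates 1 and 2 and 0.983 between TX2 replicates 5 and 7. TX1 replicate 3 correlated at 0.907, 0.961 and 0.913 with TX2 replicates 5, 6 and 7, and at 0.939 and 0.948 with TX1 replicates 2 and 4, which carry other receptors. The libraries also part by the level of 1 RNA, along a line that the groups only partly share. The ribosomal RNA gene CT010467.1 had 744 to 2167 CPM, here without TMM scaling, in the 7 TX2 libraries and 1918 in TX1 replicate 4, against 3.23 to 10.4 in TX1 replicates 1 to 3, and it was at most 54.5 CPM in DKO and WT replicates 1 to 3 and at least 885.7 CPM in DKO and WT replicates 4 and 5. TX1 replicates 1 to 3 are called rRNA-low and TX1 replicate 4 and the TX2 libraries rRNA-high below. No label gives a batch or a date, and what the division reflects was not tested. Within line A the transfer and this division cannot be told apart.

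Over all 7 and 4 libraries, few genes separated the transfers beyond the spread. By edgeR's quasi-likelihood test, with p adjusted after Benjamini and Hochberg, 3 genes rose (0.0216% of 13907 tested) and 3 fell (0.0216%) in TX2, together 0.0431%, and 2992 genes (21.5%) had an unadjusted p under 0.05. At an adjusted p under 0.10 the count was 597 genes (4.29%). The median log2 fold change of all genes was −0.01. Irrespective of the test, 229 genes (1.65%) lay higher in every TX2 library than in any TX1 library and 324 (2.33%) lower, together 3.98%, the called ones included. Dstn and Zfp287 were named by a rule on size and level, whereas Scin, Fcrl5, Grik2 and Tnnt3 fall below its level of 5 CPM and were named after their values were seen.

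The genes that rose were Scin, Dstn and Fcrl5. Scin encodes scinderin, a calcium-dependent protein that severs actin filaments, and Dstn encodes destrin, which takes actin filaments apart. Scin had 0.464 to 1.72 CPM in TX2 (median 0.761), against 0, 0, 0.0337 and 0 CPM in TX1 replicates 1 to 4. These are 206 reads over the TX2 libraries and 1 read over the TX1 libraries, a depth-scaled ratio of 114 with a counting interval of 20.3 to 4527. Scin reads were thus present in each TX2 library and nearly absent from TX1, at a level near 1 CPM. Dstn had 97.3, 103, 100.2 and 106 CPM in TX2 replicates 1 to 4 and 110.4, 81.3 and 140.4 CPM in TX2 replicates 5 to 7, against 54.8, 50.7, 55.1 and 43.9 CPM in TX1. Both lines lay at about the same Dstn level above all TX1 libraries (log2 fold change 1.05, SE 0.14, adjusted p = 0.0291 by edgeR's quasi-likelihood test). Fcrl5, an immunoglobulin-like receptor known from B cells, had 1.16 to 4.64 CPM in TX2 (median 2.69), against 0, 0, 0 and 0.0661 CPM in TX1. That is 531 reads over the TX2 libraries and 2 over the TX1 libraries, a depth-scaled ratio of 147 with a counting interval of 40.5 to 1217. The Fcrl5 reads were found in both lines. In line B the B cell receptor subunit gene Cd79a was at 0.299 to 0.913 CPM, while the whole list of B cell and plasma cell markers summed to 285 to 435 CPM. The source of the Fcrl5 reads was not tested.

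The genes that fell were Zfp287, Grik2 and Tnnt3. Zfp287, a zinc finger protein gene, had 3.41 to 5.46 CPM in TX2 (median 4.41), against 24.9, 24.3, 11.2 and 16.4 CPM in TX1 (log2 fold change −2.09, SE 0.23, adjusted p = 0.0257). Grik2, a kainate-type glutamate receptor subunit, had 1.02 to 2.48 CPM in TX2 (median 1.25), against 4.01 to 15 CPM in TX1 (log2 fold change −2.81, SE 0.38, adjusted p = 0.0291). In both genes TX1 replicate 3 was the TX1 library nearest to TX2. Tnnt3, a troponin T gene of fast skeletal muscle, had at most 0.170 CPM in TX2 and 0.794 to 1.41 CPM in TX1 (log2 fold change −3.37, SE 0.45, adjusted p = 0.0291).

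These 6 calls rest on treating 7 TX2 libraries of 2 receptors as separate. With the receptor line as a random block (correlation 0.696 within lines) and with the counts summed per line, 0 of the 6 and 0 of all genes passed. Against TX1 replicate 4 alone, the rRNA-high TX1 library, the 6 genes kept the direction of their fold changes, but the calls did not hold. That fit has 1 TX1 library and so holds no spread between TX1 libraries. Leaving out any 1 of TX2 replicates 1 to 5, or TX1 replicate 2, also left 0 calls, and without TX2 replicate 7 or TX1 replicate 1 there were 3 and 5 calls, of which 2 and 1 were among the 6. Without TX1 replicate 4 the fit called 1318 genes, without TX2 replicate 6 119 and without TX1 replicate 3 23, and each of these included all 6. DESeq2 called 1416 genes, 666 higher and 750 lower, again with all 6 among them.

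**Figure D1:**
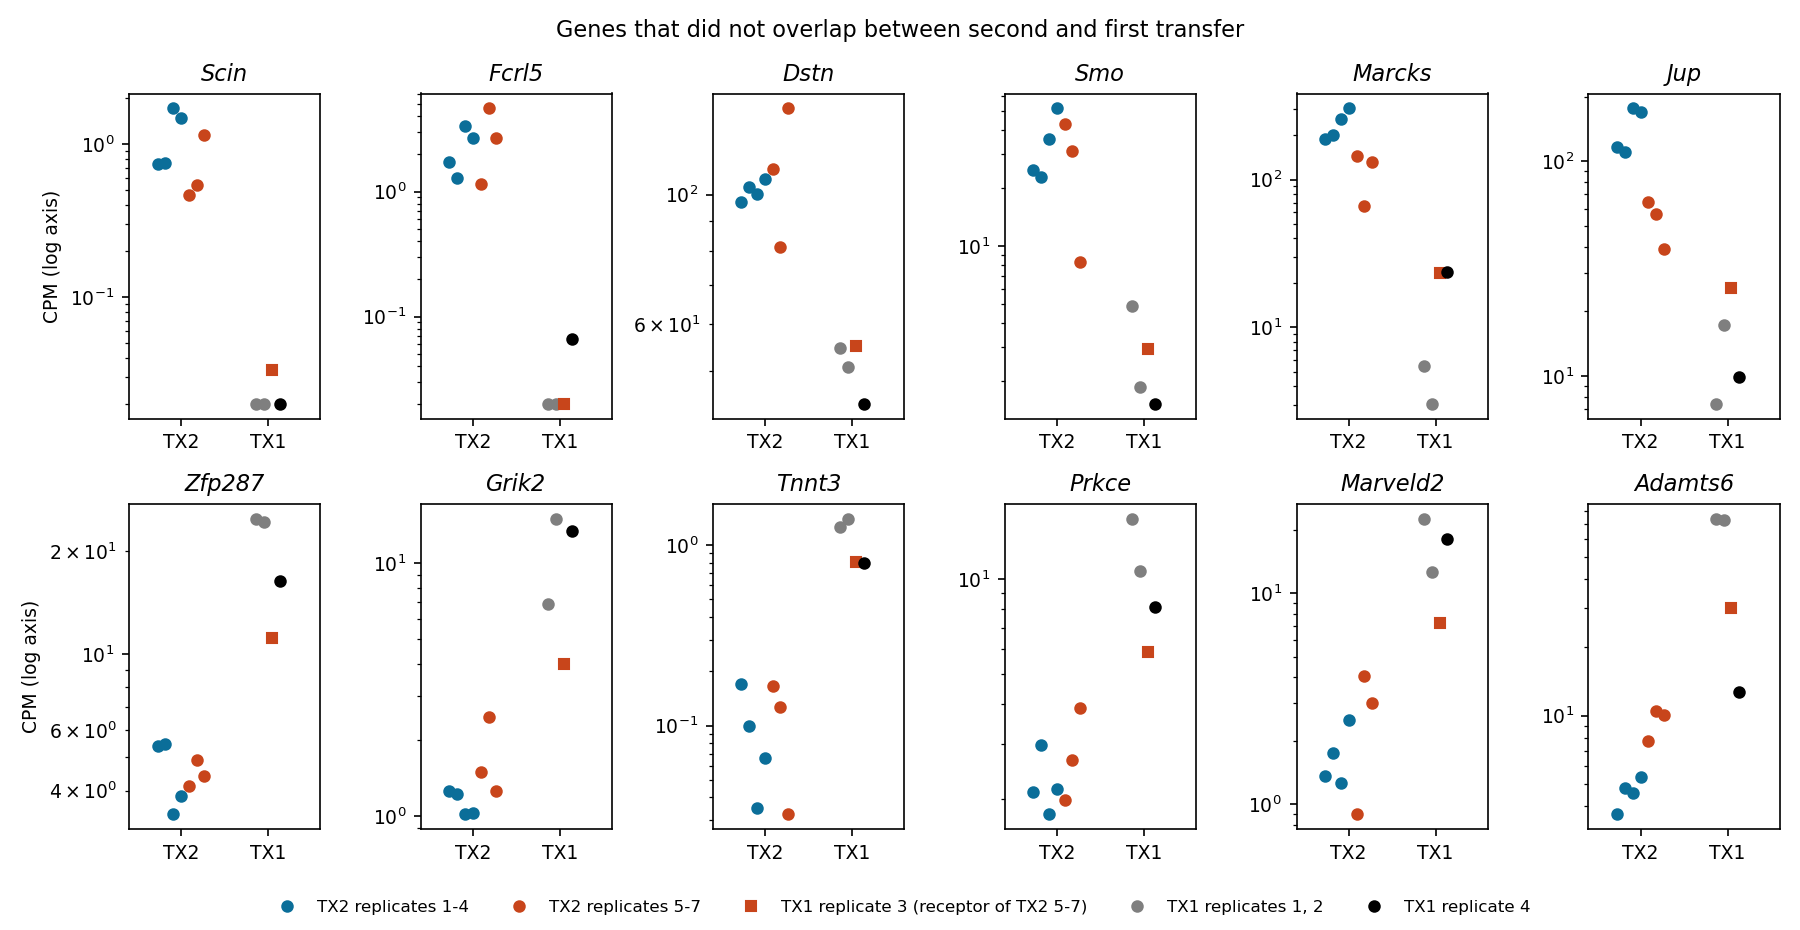
Levels of 12 genes (CPM, log axis) in the TX2 libraries at the left of each panel and the TX1 libraries at the right, 1 point per library. Blue circles are TX2 replicates 1 to 4, orange circles TX2 replicates 5 to 7, the orange square TX1 replicate 3, grey TX1 replicates 1 and 2 and black TX1 replicate 4. Values of 0 are drawn at 0.02 CPM. In each panel the groups do not overlap, and Marcks and Jup are highest in TX2 replicates 1 to 4.

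Further genes that did not overlap between the groups fall into a few roles. They are the 12 with the smallest p in each direction among those averaging at least 5 CPM, chosen after their values were seen, and apart from Dstn and Zfp287 none passed the adjusted threshold (edgeR adjusted p 0.0508 to 0.0672). Among genes of the cell cortex and its junctions, Marcks, a membrane-bound actin crosslinker, had 189, 202, 257 and 304 CPM in TX2 replicates 1 to 4 and 144, 65.9 and 132 CPM in TX2 replicates 5 to 7, against 5.46, 3.02, 23.4 and 23.8 CPM in TX1. Jup, which encodes plakoglobin of cell junctions, had 116, 111, 176 and 169 CPM in TX2 replicates 1 to 4 and 64.8, 57.0 and 39.0 CPM in TX2 replicates 5 to 7, against 7.39, 17.3, 25.6 and 9.85 CPM in TX1. In both genes line B lay above TX2 replicates 5 to 7, and these above every TX1 library. Gmfg, an actin-disassembly factor of blood cells, ran the other way, with 40.2 to 76.4 CPM in TX2 and 94.5 to 124 CPM in TX1 (log2 fold change −0.97, edgeR adjusted p = 0.0595).

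Signalling genes lay on both sides. Smo, the signal transducer of the Hedgehog pathway, had 25.0, 22.7, 36.2 and 51.9 CPM in TX2 replicates 1 to 4 and 43.0, 31.0 and 8.28 CPM in TX2 replicates 5 to 7, against 4.89, 1.86, 2.93 and 1.52 CPM in TX1 (log2 fold change 3.47, SE 0.53, edgeR adjusted p = 0.0508). Spry4, an inhibitor of receptor tyrosine kinase signalling, had 14.6 to 16.8 CPM in TX2 replicates 1 to 4 and 3.24 to 6.31 CPM in TX2 replicates 5 to 7, against 0.281 to 1.44 CPM in TX1. Rap2a, a small GTPase, had 16.3 to 53.1 CPM in TX2 and 8.77 to 12.3 CPM in TX1. In Smo, Spry4 and Rap2a the lowest TX2 library was one of TX2 replicates 5 to 7. Rgs18, a regulator of G protein signalling, had 10.6 to 23.3 CPM in TX2 replicates 1 to 4 and 0.696 to 1.87 CPM in TX2 replicates 5 to 7, with 2 reads in all 4 TX1 libraries together. Prkce, the epsilon isoform of protein kinase C, had 1.79 to 3.90 CPM in TX2 and 5.86 to 15.5 CPM in TX1 (log2 fold change −1.995, edgeR adjusted p = 0.0508). Arhgef1, an activator of RhoA downstream of G protein-coupled receptors, had 575 to 654 CPM in TX2 and 817 to 1003 CPM in TX1 (log2 fold change −0.53, SE 0.08, edgeR adjusted p = 0.0508). Its fold was small beside that of the others, and its values within each group lay close together.

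The remaining genes of this kind include metabolic, membrane and nuclear proteins. Por, the electron donor of microsomal cytochrome P450 enzymes, had 91.8 to 127 CPM in TX2 and 48.0 to 82.7 CPM in TX1, and Sypl, a synaptophysin-like vesicle protein, 97.7 to 119.6 CPM in TX2 and 60.9 to 76.8 CPM in TX1. Zfp608 had 22.6 to 37.2 CPM in TX2 replicates 1 to 4 and 2.67 to 7.80 CPM in TX2 replicates 5 to 7, against 0.0702 to 0.775 CPM in TX1. Fah and Tha1, enzymes of tyrosine and threonine breakdown, had at most 2.77 and 4.00 CPM in TX2, and at least 5.53 and 8.002 CPM in TX1. Hlcs, which attaches biotin to carboxylases, had 21.3 to 34.8 CPM in TX2 and 42.4 to 53.8 CPM in TX1. Adamts6, an extracellular protease, had 3.66 to 10.4 CPM in TX2 and 12.8 to 74.2 CPM in TX1, and Marveld2, a tight junction protein, 0.895 to 4.04 CPM in TX2 and 7.24 to 22.5 CPM in TX1. None of these groups overlapped, and their TX1 values spread more widely than their TX2 values in Fah, Adamts6 and Marveld2. Megf9 and Cdkn2aipnl lay higher in TX2, with log2 fold changes of 1.47 and 0.76, and Atp10d, Ints6l and Arhgap27os3 lower, at −2.10, −1.26 and −1.13.

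Genes that define the cells or the knockout did not part the transfers. Tet2 had 14.8 to 29.96 CPM in TX2 and 70.4, 34.8, 29.9 and 28.8 CPM in TX1 replicates 1 to 4, and Tet3 56.9 to 89.3 CPM in TX2 and 72.9 to 91.4 CPM in TX1. Counts per gene include exons outside a deleted part, so these levels do not check the knockout. Tet1 had at most 1.81 CPM in TX2, and 0.458, 0.176, 0.775 and 10.3 CPM in TX1. Most libraries held few reads of the gene that names the donor cells. Cd4, the coreceptor gene, had 0.631 to 2.26 CPM in TX2 (median 1.59), against 1055, 0.351, 27.0 and 0.132 CPM in TX1 replicates 1 to 4 (log2 fold change −7.42, SE 1.73, edgeR adjusted p = 0.0874). TX1 replicate 1 stood far above the other 10 libraries, TX1 replicate 3 above every TX2 library, and TX1 replicates 2 and 4 below every TX2 library. The CD8 marker genes summed to at most 0.419 CPM in TX2 and 0.0702 CPM in TX1. Ptprc, which encodes CD45, had 1500 to 2196 CPM in TX2 and 778 to 2072 CPM in TX1. In these bulk libraries fewer cells of a type and less RNA per cell cannot be told apart.

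In the TX2 libraries Trbc1, a constant region gene of the receptor, divided by line. Segments TRBJ1 lie in front of Trbc1 and segments TRBJ2 in front of Trbc2. Trbc1 had 1495, 1505, 2662 and 2167 CPM in TX2 replicates 1 to 4, which carry TRBJ1-1, and 0.365, 0.318 and 0.515 CPM in TX2 replicates 5 to 7, which carry TRBJ2-3, against 877, 0.211, 0.101 and 3.08 CPM in TX1. TX1 replicate 1 had 877 CPM of Trbc1 although its 2 most abundant TRB clonotypes, at 91.0 and 8.65% of reads, use segments TRBJ2-7 and TRBJ2-2. Trbc2 had 819 to 1026 CPM in TX2 replicates 1 to 4 and 674 to 784 CPM in TX2 replicates 5 to 7, against 754 to 1170.0 CPM in TX1, so its reads were found in both lines. Trac, the alpha constant gene, had 1557, 1545, 1839 and 1706 CPM in TX2 replicates 1 to 4 and 887, 714 and 761 CPM in TX2 replicates 5 to 7, against 1205, 719, 568 and 1178 CPM in TX1. Trac was higher in line B than in TX2 replicates 5 to 7. Zbtb16, which encodes the innate-like T cell factor PLZF, had 289.9 to 414 CPM in TX2 replicates 1 to 4 and 64.7 to 146 CPM in TX2 replicates 5 to 7, against 64.7 to 233 CPM in TX1. Pdcd1, which encodes the inhibitory receptor PD-1, had 332 to 622 CPM in TX2 replicates 1 to 4 and 44.3 to 152 CPM in TX2 replicates 5 to 7, against 39.2 to 268 CPM in TX1. Myc, Trp53, Il2ra, Il23r and Gata3 overlapped between the groups as well, and none of these genes was called.

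Of the members of 41 gene lists, 653 were tested and 0 were called in TX2 against TX1 by edgeR's quasi-likelihood test (smallest adjusted p 0.0605). An unadjusted p under 0.05 was found for 156 members (23.9%), against 21.5% of all genes. DESeq2 called 76 of the 715 members it tested, beside 1416 genes in all. By it 221 members (30.9%) had an unadjusted p under 0.05, against 14.4% of all genes. The newer edgeR fit called 3 members, beside 60 genes in all. Without TX1 replicate 4, edgeR called 88 members, beside 1318 genes in all, and without TX2 replicate 6 it called 6, beside 119. Without TX1 replicate 1 or TX1 replicate 3 it called 1 member, beside 5 and 23 genes in all. The 2 groups did not overlap for 13 members on the higher side (1.99%, against 1.65% of all genes) and for 9 on the lower side (1.38%, against 2.33%). Higher in every TX2 library were the costimulatory ligand Cd86, the phosphatase Dusp4 of MAP kinase signalling, the G1 cyclin Ccnd1, the glycolytic enzyme Eno1, the isocitrate dehydrogenase Idh1, the repair glycosylase Mbd4, the leukaemia-associated factor Lyl1, the respiratory subunit Ndufa2, the natural killer receptor Ncr1, the MHC class II modulator H2-Ob and the myeloid genes Csf1r, Lyz2 and Cxcr2. Lower in every TX2 library were the chromatin organiser Satb1, the antigen peptide transporter Tap2, the kinase Jak3, the cytokine signalling inhibitor Socs2, the interferon factor Irf9, the p53 targets Ddb2 and Tnfrsf10b, the methyl-CpG binding Mbd1 and the imprinted Zrsr1. Satb1 had 89.6 to 197 CPM in TX2 (median 129), against 380.1, 249, 311 and 371 CPM in TX1 (log2 fold change −1.27, SE 0.22, edgeR adjusted p = 0.0605). Cd86 had 17.2 to 38.0 CPM in TX2 replicates 1 to 4 and 1.06 to 1.97 CPM in TX2 replicates 5 to 7, against 0 to 0.236 CPM in TX1. Satb1 was lower in both lines, while the Cd86 reads came mostly from line B.

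**Figure D2:**
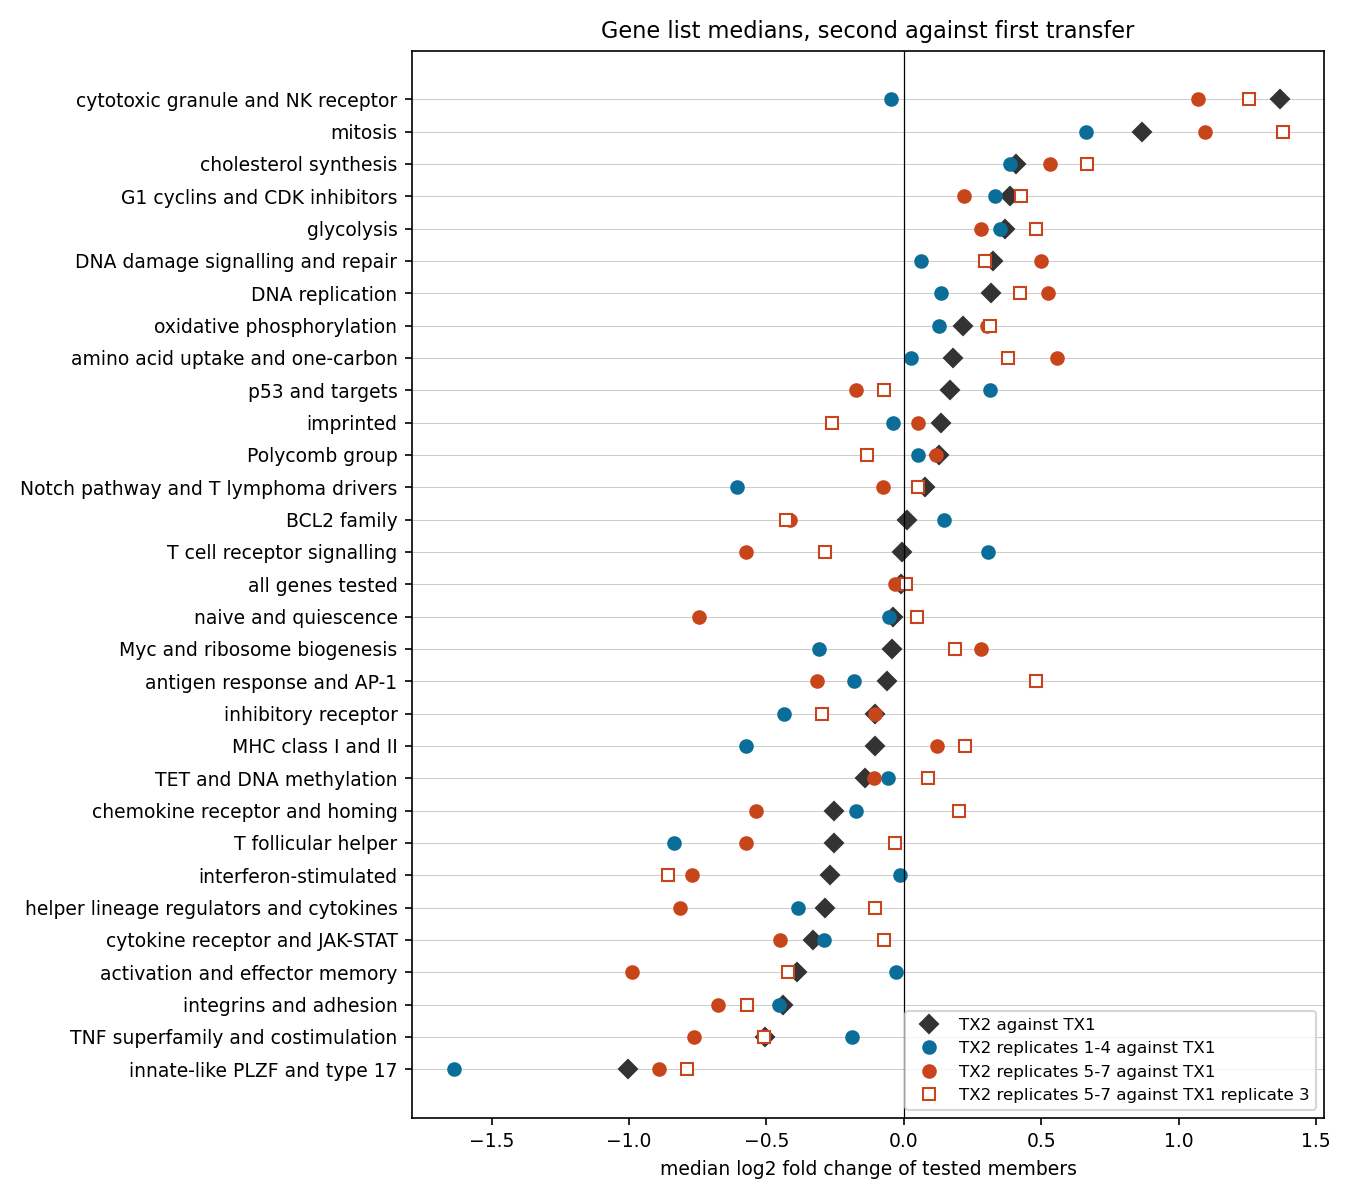
Median log2 fold change of the tested members of each gene list, for TX2 against TX1 (dark diamonds), TX2 replicates 1 to 4 against TX1 (blue circles), TX2 replicates 5 to 7 against TX1 (orange circles) and TX2 replicates 5 to 7 against TX1 replicate 3 (open squares), with all genes tested for scale. The lists run down the vertical axis, and the first 3 comparisons share the TX1 libraries. The mitosis list lies at 0.87 for TX2 over TX1 and at 1.38 within line A, and most other lists lie near the median of all genes.

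Among the lists of more than 10 tested genes, the highest medians of TX2 over TX1 were those of cytotoxic granule and natural killer receptor genes (log2 1.37, 23 tested) and mitosis genes (0.87, 30 tested), against −0.01 for all genes. Cholesterol synthesis (0.41), G1 cyclins and CDK inhibitors (0.39), glycolysis (0.37), DNA damage (0.33) and DNA replication (0.32) followed. The lowest were those of innate-like and type 17 genes (−1.003, 14 tested), TNF superfamily and costimulation (−0.50), integrins and adhesion (−0.44) and activation and effector memory genes (−0.39). All 30 mitosis genes and all 32 replication genes had a log2 fold change above 0, and 20 of 22 cholesterol and 25 of 27 oxidative phosphorylation genes, with 0 called in each by edgeR. For mitosis, 8 of 30 (26.7%) had an unadjusted p under 0.05 by edgeR, against 21.5% of all genes. By DESeq2 18 of 27 (66.7%) did, against 14.4% of all genes, and 2 were called. The cytotoxic list had a median of −0.05 over 18 tested genes in TX2 replicates 1 to 4 against TX1 and of 1.07 over 22 in TX2 replicates 5 to 7 against TX1. The filter on low counts let different members of this list into each fit, so its medians do not describe 1 set of genes. Its sums overlapped, at 929.8 to 1242 CPM in TX2 and 477.5 to 1065 CPM in TX1.

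Summed over the list, mitosis genes had 3045, 3014, 2800 and 3241 CPM in TX2 replicates 1 to 4 and 4198, 3999 and 3751 CPM in TX2 replicates 5 to 7, against 831, 1264, 1595 and 4209 CPM in TX1 replicates 1 to 4. The TX2 libraries were close to each other, while TX1 replicate 4 was the highest of all 11 and TX1 replicates 1 to 3 were the lowest. TX1 replicate 4 is the rRNA-high TX1 library. Among freshly sorted cells the sums were 2424 to 3091 CPM in DKO replicates 4 and 5, 1065 to 3427 CPM in DKO replicates 1 to 3, 419 to 518 CPM in WT replicates 4 and 5 and 256 to 408 CPM in WT replicates 1 to 3. Set against TX1 replicate 4 alone, the median of the mitosis list was −0.48 for TX2 replicates 1 to 4, with 8 of 30 genes called lower, and 9.04e-05 for TX2 replicates 5 to 7, with 0 called and 0 at an unadjusted p under 0.05.

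**Figure D3:**
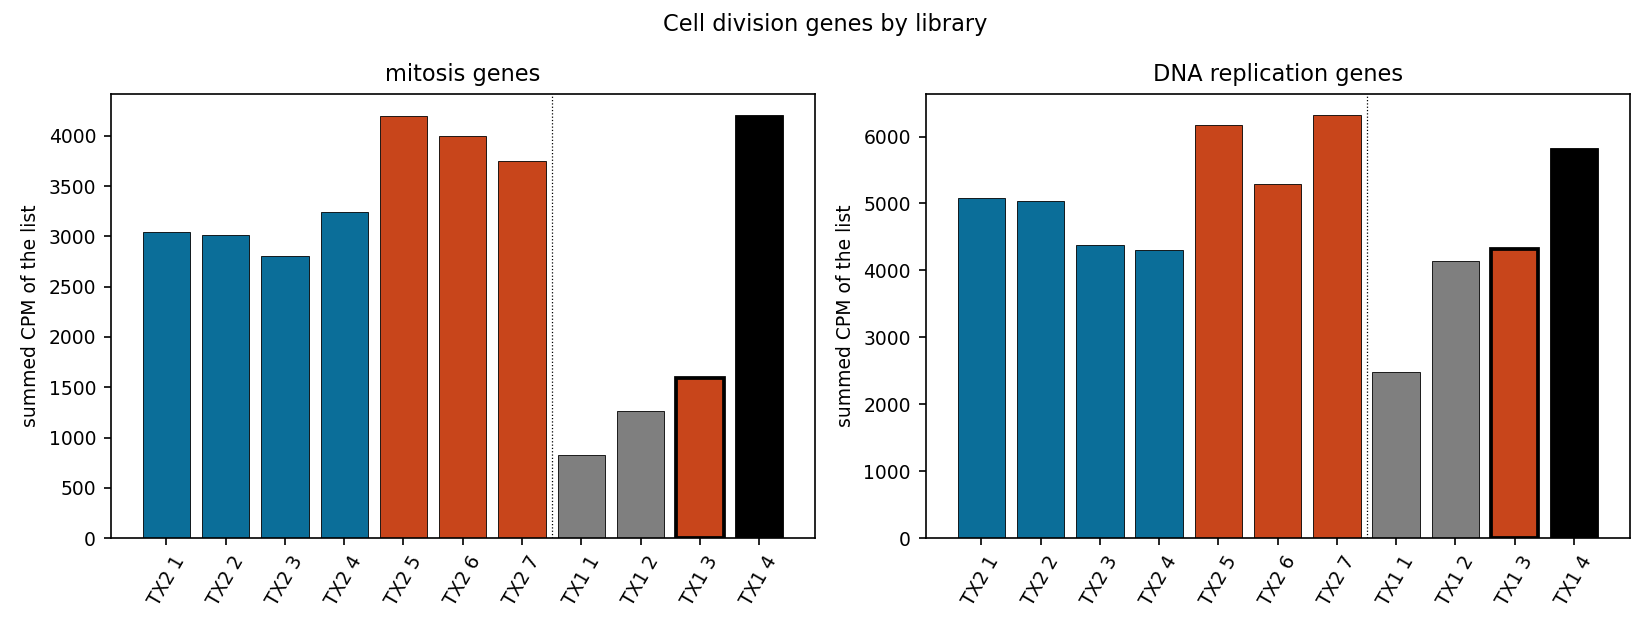
Summed CPM of the mitosis list (left) and the DNA replication list (right), 1 bar per library, with TX2 to the left of TX1. Blue bars are TX2 replicates 1 to 4, orange bars TX2 replicates 5 to 7, the orange bar with a thick edge TX1 replicate 3, grey bars TX1 replicates 1 and 2 and the black bar TX1 replicate 4. For mitosis the TX2 libraries lie between 2800.0 and 4198 CPM, with TX1 replicate 4 level with the highest of them and the other TX1 libraries at 1595 CPM or less.

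Each TX2 line was also set against the 4 TX1 libraries on its own. TX2 replicates 1 to 4 had 763 genes higher (5.83% of 13089) and 733 lower (5.6%), and TX2 replicates 5 to 7 had 175 higher (1.24% of 14076) and 8 lower (0.0568%), together 1.3%. Both comparisons use the same TX1 libraries. Of the 6 genes called over all 11 libraries, 6 were called for TX2 replicates 1 to 4 and 4 for TX2 replicates 5 to 7. Dstn, Zfp287 and Dusp4 were among the genes called in both comparisons. Each TX2 line is 1 receptor, so the clone and the number of transfers cannot be told apart in them. Against TX1 replicate 4 alone, which is rRNA-high like TX2, the shares called were 8.03% for TX2 replicates 1 to 4 (4.38% higher) and 2.57% for TX2 replicates 5 to 7. The genes named here were chosen after their values were seen, from 89 list members called for TX2 replicates 1 to 4 (50 higher and 39 lower) and 19 called for TX2 replicates 5 to 7 (all higher).

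In line B, 4 genes of the AP-1 complex of immediate early factors fell. Of 24 antigen response and AP-1 genes 4 were called lower and 2 higher, with a list median of −0.18 and 10 above 0. Fos had 4.24, 7.15, 5.97 and 2.16 CPM in TX2 replicates 1 to 4, against 427, 939.6, 118 and 22.2 CPM in TX1 (log2 fold change −6.24, SE 1.15, edgeR adjusted p = 0.0158). Jun had 0.166 to 2.08 CPM in TX2 replicates 1 to 4, against 71.1, 599, 37.1 and 2.41 CPM in TX1 (log2 fold change −7.29, edgeR adjusted p = 0.0331). Junb and Fosb fell as well, with log2 fold changes of −2.58 and −5.11 (edgeR adjusted p = 0.0289 and 0.0272). TX1 replicate 4, the rRNA-high one, was the TX1 library nearest to line B for all 4 genes. Against that library alone Fos fell by 2.16 (edgeR adjusted p = 0.0354) and Jun, Junb and Fosb were not called. In TX2 replicates 5 to 7, Fos had 137, 198 and 139 CPM and Jun 51.2, 78.3 and 56.2 CPM, within the range of TX1.

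Of 23 genes for MHC molecules and their loading, 7 fell and 2 rose in line B, with a list median of −0.57 against −0.01 for all genes. Nlrc5, the transcriptional activator of MHC class I genes, had 9.12, 10.5, 7.03 and 8.70 CPM in TX2 replicates 1 to 4, against 187, 41.4, 49.6 and 21.9 CPM in TX1 (log2 fold change −3.04, edgeR adjusted p = 0.0229). The class I gene H2-D1 had 528 to 663 CPM in TX2 replicates 1 to 4, against 853 to 1574 CPM in TX1 (log2 fold change −0.83, edgeR adjusted p = 0.0297). H2-DMa, which loads class II molecules, had 2.48 to 3.22 CPM in TX2 replicates 1 to 4, against 7.31 to 13.8 CPM in TX1 (log2 fold change −1.85, SE 0.24, edgeR adjusted p = 0.00487). The peptide transporter genes Tap1 and Tap2 fell, with log2 fold changes of −0.57 and −0.58. Line B thus had less RNA of several steps of antigen presentation than any TX1 library. Against TX1 replicate 4 alone, Tap2 and H2-DMa were called lower (log2 fold change −0.67 and −1.38) and Nlrc5 and H2-D1 were not.

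Some genes of adhesion, glucose uptake and the G1 phase rose in line B, where 5.83% of all genes did. Itgb2, the beta chain of the leukocyte integrins, had 991, 990.5, 1316 and 1224 CPM in TX2 replicates 1 to 4, against 529, 486, 419 and 466 CPM in TX1 (log2 fold change 1.29, SE 0.14, edgeR adjusted p = 0.00297). The hyaluronan receptor Cd44 had 299.5 to 307 CPM in TX2 replicates 1 to 4, against 123 to 199 CPM in TX1 (log2 fold change 1.06, SE 0.15, edgeR adjusted p = 0.00663), and the integrin chains Itgal and Itgav rose by 0.77 and 1.03. These are the 4 genes called of 17 tested integrin and adhesion genes, whose median log2 fold change was −0.46, with 6 above 0. TX2 replicates 5 to 7 lay below TX1 for Itgb2, at 248, 370.0 and 230.3 CPM. The glucose transporter Slc2a3 had 216, 214, 253 and 281 CPM in TX2 replicates 1 to 4, against 45.3, 70.4, 99.4 and 89.6 CPM in TX1 (log2 fold change 1.70, SE 0.25, edgeR adjusted p = 0.00683). The transporter Slc2a1, the hexokinase Hk2 and Gapdh rose too, by 0.91, 0.64 and 0.85, making 4 of 20 glycolysis genes (list median 0.35). Of 18 genes for G1 cyclins and CDK inhibitors 3 were called higher, Ccnd2, Ccnd1 and Cdkn1c (list median 0.33). Ccnd2, a D-type cyclin that drives entry into the cell cycle, had 1344, 1457, 1330.0 and 1352 CPM in TX2 replicates 1 to 4, against 562, 427, 316 and 406 CPM in TX1 (log2 fold change 1.72, SE 0.16, edgeR adjusted p = 0.0026). TX2 replicates 5 to 7 had 208, 293 and 161 CPM of Ccnd2, below every TX1 library, so the lines lay on opposite sides of TX1. Slc2a3, Hk2, Gapdh and Ccnd2 lie on chromosome 6. The median log2 ratio of that chromosome to TX1 replicate 4, less that of all autosomal genes, was 0.33 to 0.52 in TX2 replicates 1 to 4. The part of this shift in the rises of these genes was not tested. Against TX1 replicate 4 alone, Itgb2, Itgal, Itgav, Slc2a3 and Ccnd2 were called in line B too, and Cd44, Slc2a1, Hk2 and Gapdh were not called.

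Line B also carried more RNA of some natural killer and chemokine receptor genes. Nkg7, a cytotoxic granule protein, had 460.0 to 581 CPM in TX2 replicates 1 to 4, against 81.1 to 194 CPM in TX1 (log2 fold change 2.06, edgeR adjusted p = 0.00478), and Ncr1, which encodes the receptor NKp46, 6.39 to 14.3 CPM in TX2 replicates 1 to 4, against 0 to 0.317 CPM in TX1. The chemokine receptors Ccr8 and Cx3cr1 rose by 2.81 and 3.13. Of 18 cytotoxic granule and natural killer receptor genes 2 were called higher (list median −0.05, 8 above 0). Of 20 chemokine receptor and homing genes 3 were called higher and 1 lower (list median −0.17, 7 above 0). Over all genes tested in this comparison, 5.83% were called higher and 5.6% lower. The rises were thus those of single genes rather than of either list. The natural killer cell markers summed to 76.1 to 149.5 CPM in TX2 replicates 1 to 4, against 71.3 to 319 CPM in TX1. The costimulator Icos (log2 fold change −1.24), the repressor Gfi1 (−2.31), the Notch target Hes1 (−4.02) and the scavenger receptor Cd163l1 (−4.99) fell. Icos, Gfi1, Cd163l1 and Ncr1 were also called against TX1 replicate 4 alone.

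In TX2 replicates 5 to 7 the 19 list members that rose against TX1 were mostly markers of other cells: 6 of 13 B cell markers, 5 of 10 neutrophil markers and 2 of 11 tested macrophage markers, among them Cd79a, Ms4a1, Mpo, Elane and Csf1r. Of genes outside the marker lists, Dusp4 had 91.3, 38.9 and 81.5 CPM in TX2 replicates 5 to 7, against 22.1, 14.1, 10.8 and 14.8 CPM in TX1 (log2 fold change 2.19, SE 0.35, edgeR adjusted p = 0.0412). Cd55, which limits complement on the cell surface, had 46.8, 7.15 and 84.8 CPM in TX2 replicates 5 to 7, against 0.246, 0, 0.438 and 0.0992 CPM in TX1 (log2 fold change 7.85, edgeR adjusted p = 0.0412). Cd55 was at 0 to 0.136 CPM in TX2 replicates 1 to 4. Dusp4 was higher in both lines (log2 fold change 1.19 in TX2 replicates 1 to 4, edgeR adjusted p = 0.0208), whereas Cd55 was at or below 0.438 CPM in all libraries but TX2 replicates 5 to 7.

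Within line A the receptor is held constant, and 3 TX2 libraries can be set against the TX1 library of the same clone. The labels do not say that TX1 replicate 3 gave the cells that TX2 replicates 5 to 7 descend from. The dispersion was estimated from the 4 libraries of line A and TX2 replicates 1 to 4, because TX1 has 1 library here. It thus holds no spread between TX1 libraries, and TX1 replicate 3 is assumed to vary like TX2 libraries of 1 receptor. By edgeR's quasi-likelihood test 265 genes rose (1.66% of 15961) and 67 fell (0.42%) in TX2 replicates 5 to 7. The median log2 fold change of all genes was 0.01. The count was 3 in a fit of the 4 libraries alone, 2 in a fit of all 21 libraries and 1423 by DESeq2. It rose to 2392 without TX2 replicate 6, and was 181 and 195 without TX2 replicates 5 and 7. Of the 265 higher genes, 167 were also higher in each of TX2 replicates 5 to 7 than in TX1 replicate 4, and of the 67 lower genes 42 were also lower. Their median log2 fold changes were 1.62 and −2.02 against TX1 replicate 3, and 0.31 and −0.61 against TX1 replicate 4.

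The naming rule gave 10 falls, among them that of the coreceptor gene Cd4. Cd4 had 1.59, 2.26 and 1.42 CPM in TX2 replicates 5 to 7, against 27.0 CPM in TX1 replicate 3 (log2 fold change −3.96, SE 0.55, edgeR adjusted p = 0.0147). Gdnf, a neurotrophic factor, had 1.96, 1.02 and 1.87 CPM in TX2 replicates 5 to 7, against 20.96 CPM in TX1 replicate 3 (log2 fold change −3.71, edgeR adjusted p = 0.013). Armcx2 had 0.431, 1.02 and 0.709 CPM in TX2 replicates 5 to 7, against 22.1 CPM in TX1 replicate 3 (log2 fold change −4.95, SE 0.46, edgeR adjusted p = 0.00612). Low Cd4 was shared with line B, whereas Armcx2 was at 37.2 to 74.3 CPM in TX2 replicates 1 to 4, above TX1. The kinase Ttbk1 had 2.98, 3.97 and 4.12 CPM in TX2 replicates 5 to 7, against 21.7 CPM in TX1 replicate 3 (log2 fold change −2.57, SE 0.23, edgeR adjusted p = 0.00492). Syne1, a nuclear envelope protein that ties the nucleus to the cytoskeleton, had 24.9, 56.0 and 43.4 CPM in TX2 replicates 5 to 7, against 208 CPM in TX1 replicate 3 (log2 fold change −2.34, edgeR adjusted p = 0.024). The other falls were those of the extracellular proteoglycan gene Spock2 (log2 fold change −2.44), the kinase Pak1 (−2.91), the Notch coactivator Maml2 (−2.18), the synaptic adhesion gene Nlgn2 (−2.21) and the lipid flippase gene Atp8a2 (−3.49). Against TX1 replicate 4, which had 0.132 CPM of Cd4, the log2 fold changes of Cd4 and Pak1 were 3.69 and 0.75, opposite in sign. Those of Syne1, Spock2, Gdnf and Atp8a2 were −0.14, −0.12, −0.64 and −0.88, and those of Nlgn2, Maml2 and Armcx2 −1.14, −1.45 and −2.32. Ttbk1 was the 1 gene of the 10 called against that library (log2 fold change −1.53, edgeR adjusted p = 0.0213).

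**Figure D4:**
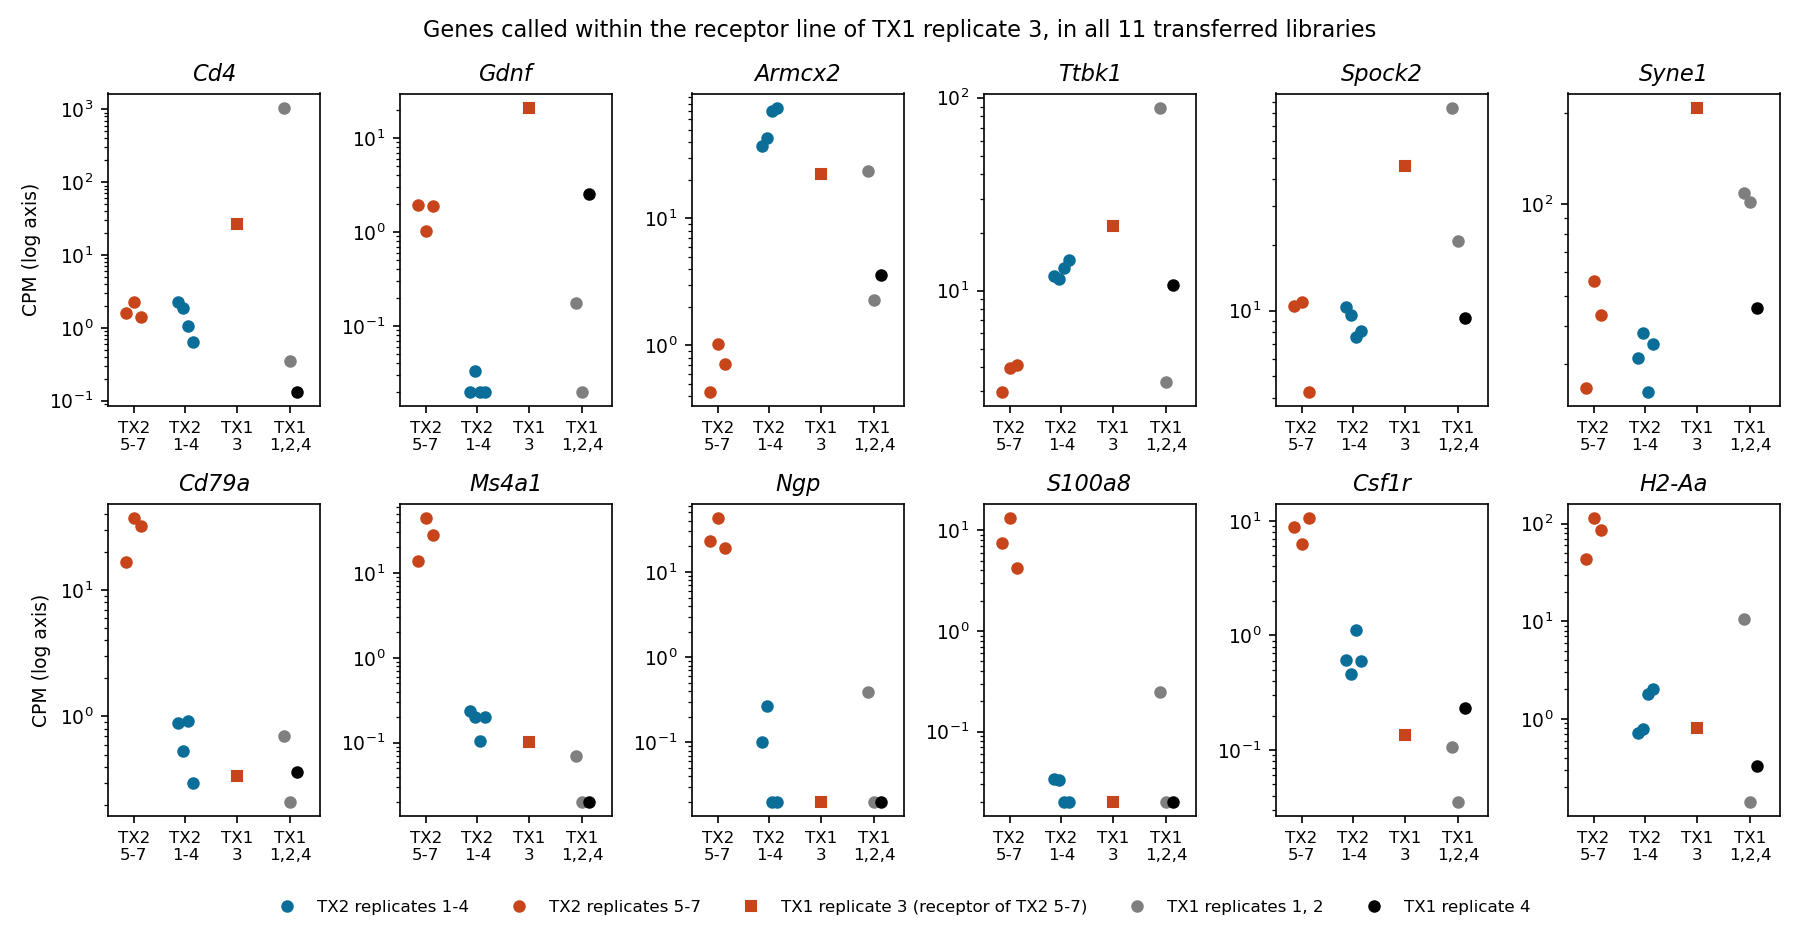
Levels of 12 genes called within line A (CPM, log axis) in TX2 replicates 5 to 7, TX2 replicates 1 to 4, TX1 replicate 3 and TX1 replicates 1, 2 and 4, from left to right. Points are libraries, coloured as in the legend, and values below 0.02 CPM are drawn at 0.02. The upper row holds genes that fell within the line, with TX2 replicates 5 to 7 below the square of TX1 replicate 3, and the lower row holds B cell and myeloid genes, which are high in TX2 replicates 5 to 7 and low in the other 8 libraries apart from H2-Aa in TX1 replicate 1.

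Mitosis genes rose together within line A. Of 30 tested 29 were called higher, with a median log2 fold change of 1.38 against 0.01 for all genes. Plk1, a kinase of mitotic entry, had 164, 133 and 147 CPM in TX2 replicates 5 to 7, against 35.2 CPM in TX1 replicate 3 (log2 fold change 2.06, SE 0.16, edgeR adjusted p = 0.00395). Ube2c, which helps to destroy cyclins at mitotic exit, had 168, 176 and 134 CPM in TX2 replicates 5 to 7, against 31.9 CPM in TX1 replicate 3 (log2 fold change 2.30, SE 0.19, edgeR adjusted p = 0.0043). The kinase Cdk1 had 147, 116 and 116 CPM in TX2 replicates 5 to 7, against 35.3 CPM in TX1 replicate 3. TX1 replicate 3 lay well below its TX2 counterparts for each of these genes. TX1 replicate 4 lay with TX2, at 130.4 CPM of Plk1, 176 CPM of Ube2c and 124 CPM of Cdk1, and with it in place of TX1 replicate 3 no mitosis gene was called. Mki67, the proliferation antigen, had 456, 555 and 437 CPM in TX2 replicates 5 to 7, against 283 CPM in TX1 replicate 3 and 597 CPM in TX1 replicate 4, and was the 1 list member not called. Of 32 DNA replication genes 3 rose (Tk1, Rrm1 and Rrm2, by 0.70, 0.90 and 0.93), with a list median of 0.42, and of 35 DNA damage genes 3 rose (Blm, H2afx and Fancd2, by 0.89, 0.90 and 1.06). In the fit of the 4 libraries alone and in the fit of all 21 libraries, 0 of the 30 mitosis genes were called.

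A few genes of lymphocyte development and chromatin rose beside them. Myb, a transcription factor of immature blood cells, had 472, 318 and 373 CPM in TX2 replicates 5 to 7, against 166 CPM in TX1 replicate 3 (log2 fold change 1.21, edgeR adjusted p = 0.0474), and TX1 replicate 4 was at 178 CPM. Cxcr4, the receptor for CXCL12, had 162, 96.0 and 163 CPM in TX2 replicates 5 to 7, against 32.6 CPM in TX1 replicate 3 (log2 fold change 2.09, edgeR adjusted p = 0.0216), with 94.5 CPM in TX1 replicate 4. Ezh2, the Polycomb methyltransferase, rose by 1.01 and the inhibitory ligand gene Cd200 by 1.32. Cd200 and Myb lay above both TX1 replicates 3 and 4, whereas TX1 replicate 4 was near the lowest TX2 value for Cxcr4 and Ezh2. Of 33 interferon-stimulated genes, Gbp2 and Gbp7, guanylate-binding proteins, fell, with log2 fold changes of −1.06 and −0.94 and a list median of −0.86, and the MHC class I gene H2-T23 fell (log2 fold change −0.92).

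Reads of several B cell and myeloid genes were present in TX2 replicates 5 to 7 and nearly absent from TX1 replicate 3, although the B cell list as a whole summed to 855 CPM in TX1 replicate 3. Of the 10 rises that the naming rule gave, all had 0 reads in TX1 replicate 3, where 3 reads correspond to 0.101 CPM. Ngp, a neutrophil granule protein, had 23.3, 43.1 and 19.1 CPM in TX2 replicates 5 to 7, at least 282-fold above that floor. Ly6d, a B lineage surface gene, was at least 175-fold higher, S100a9 and S100a8, the calprotectin subunits of neutrophils, at least 134-fold and 82.2-fold, the granule genes Ltf and Mpo at least 113-fold and 86.6-fold, the class II modulator H2-Ob at least 87.7-fold, the desaturase Scd1 at least 103-fold, the carboxylesterase Ces2g at least 75.5-fold and the B lineage factor Bcl11a at least 70.1-fold. Cd79a had 16.8, 37.1 and 31.9 CPM in TX2 replicates 5 to 7, against 0.337 CPM in TX1 replicate 3 (log2 fold change 6.37, SE 0.86, edgeR adjusted p = 0.0142). The macrophage receptor gene Csf1r had 8.79, 6.26 and 10.6 CPM in TX2 replicates 5 to 7, against 0.135 CPM in TX1 replicate 3. The class II gene H2-Aa had 43.0, 114 and 86.3 CPM in TX2 replicates 5 to 7, against 0.809 CPM in TX1 replicate 3. All 3 TX2 libraries of the line carried these reads.

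By list, 8 of 13 B cell markers, 6 of 10 neutrophil markers, 1 of 12 tested macrophage markers, 1 of 6 tested dendritic cell markers and 0 of 9 erythroid markers were called higher within line A. The neutrophil list summed to 78.1, 126 and 66.5 CPM in TX2 replicates 5 to 7 and 0.465 to 0.794 CPM in TX2 replicates 1 to 4, against 1.51, 0.246, 0.0674 and 0.595 CPM in TX1 replicates 1 to 4. Freshly sorted cells, without TMM scaling, had 181.7 to 183.6 CPM in DKO replicates 4 and 5 and 3.96 to 26.6 CPM in DKO replicates 1 to 3. WT replicates 4 and 5 had 10.1 to 66.95 CPM and WT replicates 1 to 3 had 0.111 to 8.07 CPM. The macrophage list summed to 66.1, 55.5 and 93.8 CPM in TX2 replicates 5 to 7 and 6.41 to 22.2 CPM in TX2 replicates 1 to 4, against 44.1, 3.13, 4.72 and 4.50 CPM in TX1. The B cell list summed to 1017 to 1374 CPM in TX2 replicates 5 to 7 and 285 to 435 CPM in TX2 replicates 1 to 4, against 701 to 923 CPM in TX1. The erythroid list stood at 24.8, 51.5 and 678 CPM in TX2 replicates 5 to 7, against 3.20 CPM in TX1 replicate 3, with TX2 replicate 7 far above the rest. Against TX1 replicate 4, which is rRNA-high like TX2, 9 B cell and 6 neutrophil markers were called. The sort kept CD45.2+ CD45.1- cells, which the labels also give as TCRb+, and the part of other sorted cells in the line A results was not tested. Fcrl5, called over all 11 libraries, was also called within line A, at 1.16, 4.64 and 2.71 CPM in TX2 replicates 5 to 7 and 0 reads in TX1 replicate 3 (at least 28.1-fold, edgeR adjusted p = 0.0434).

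TX2 replicate 6 lay between TX1 replicate 3 and the other TX2 libraries of the line for many genes. Among 673 genes at least 2-fold lower in the mean of TX2 replicates 5 and 7 than in TX1 replicate 3, TX2 replicate 6 was closer to TX1 replicate 3 in 530 (78.8%), and among 595 genes at least 2-fold higher, in 239 (40.2%). The like shares for TX2 replicate 5 were 15 of 296 (5.07%) and 19 of 447 (4.25%), and for TX2 replicate 7, 9 of 409 (2.2%) and 39 of 454 (8.59%). TX2 replicates 5 and 7 were thus seldom close to TX1 replicate 3, and TX2 replicate 6 was close to it mainly among the lower genes. The imprinted growth regulator Grb10 followed that order, at 619, 174 and 958 CPM in TX2 replicates 5, 6 and 7, against 23.6 CPM in TX1 replicate 3, and was not called (edgeR adjusted p = 0.0823).

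Chromosomes 16 and 17 had lower median levels than the other autosomes within the line. Over 333 genes of chromosome 16, the median log2 ratio to TX1 replicate 3, less the median of all autosomal genes, was −0.29, −0.04 and −0.25 in TX2 replicates 5, 6 and 7. Over 546 genes of chromosome 17 it was −0.12, −0.11 and −0.11. Chromosome 16 was thus lower in TX2 replicates 5 and 7 and not in TX2 replicate 6, while chromosome 17 was lower by about the same small amount in all 3. Chromosome 15 was at −0.05, −0.03 and 0.12 in TX2 replicates 5, 6 and 7. Set against TX1 replicate 4, chromosome 16 was at −0.02, 0.20 and 0.00 in TX2 replicates 5, 6 and 7 and at 0.26 in TX1 replicate 3, and chromosome 15 at 0.31, 0.32 and 0.45 in TX2 replicates 5, 6 and 7 and 0.35 in TX1 replicate 3. Chromosome 6 was at 0.33, 0.35, 0.50 and 0.52 in TX2 replicates 1 to 4 on the same scale. On it chromosome 17 was at −0.11, −0.11, −0.04 and −0.10 in TX2 replicates 1 to 4. It was at −0.10, −0.08 and −0.13 in TX2 replicates 5 to 7 and at −0.001 in TX1 replicate 3. Low values of chromosome 17 were thus not particular to line A. Gene copy number was not measured in these data.

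**Figure D5:**
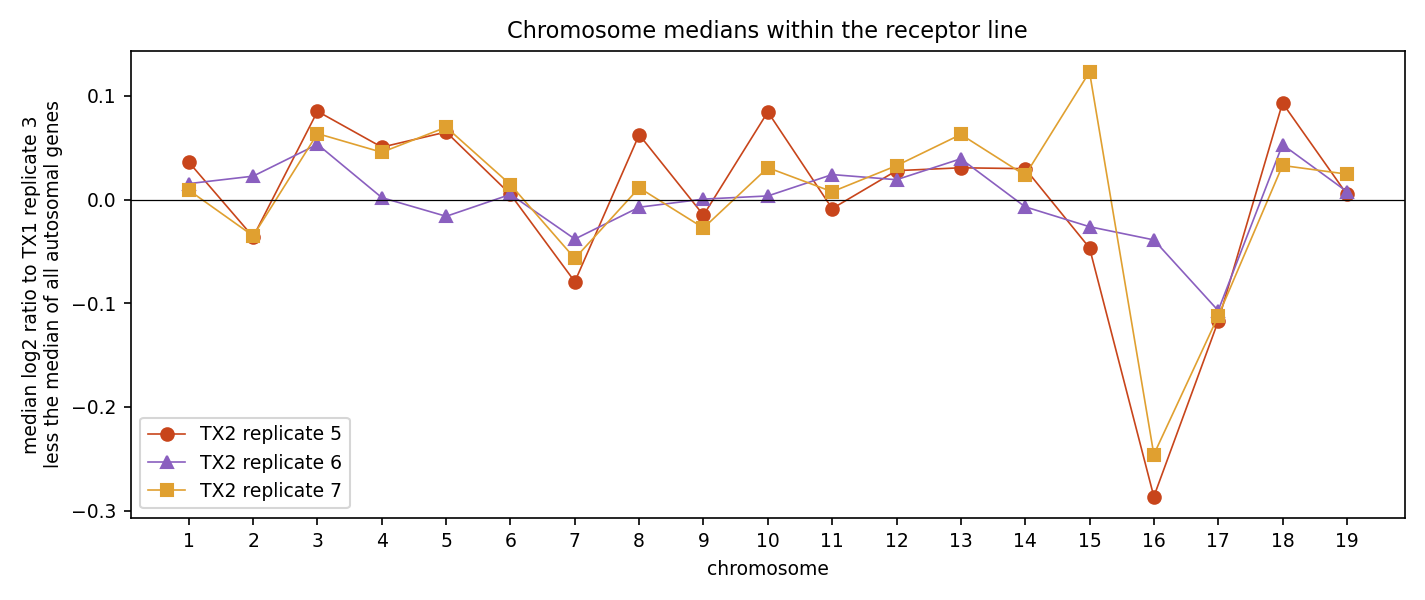
Median over the genes of each autosome (horizontal axis) of the log2 ratio to TX1 replicate 3, less the median of all autosomal genes (vertical axis), for TX2 replicates 5, 6 and 7, each a line. The low points at chromosome 16 are −0.29 and −0.25 in TX2 replicates 5 and 7, where TX2 replicate 6 is at −0.04.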

How the data were processed

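RNA was sequenced from sorted spleen T cells, with 21 libraries in the series. The deposited values are raw read counts per gene, made by the authors with fastp 0.21.0 and STAR 2.7.5a on mm10/GRCm38, per the submitters' processing notes, and the first, unstranded count column was used, so that reads of overlapping and antisense genes cannot be told apart. The deposited clonotype tables hold read counts per CDR3, and the share (fraction) of reads per clonotype that the authors computed before deposit. The tool behind them is not named in the labels, and shares were recomputed here from the counts. The 4 summary lines, 16.8 to 18.4% of the reads per transferred library, stayed out of library sizes and tests. Of 55487 gene IDs 55227 matched the GENCODE annotation. The closest pair of libraries differed by 6.04 times the counting noise in a chi-square test over genes, so each library was counted once.

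TX2 (7) and TX1 (4) were compared with edgeR 4.0.16's quasi-likelihood test (robust, TMM, filter on low counts) in R 4.3.3, with Benjamini-Hochberg adjustment over all genes tested and a threshold of 0.05. The within-line contrast used the line A libraries and TX2 replicates 1 to 4 for the dispersion. DESeq2 1.42.0, limma 3.58.1 with receptor line as a random block, and further settings were alternatives. Data with 200 changed genes were simulated, with libraries drawn independently and no effect of the receptor line. For TX2 against TX1, 20% of 2-fold and 65% of 4-fold changes were recovered, with 2 false calls over 13907 genes. These rates do not cover the likeness of libraries of 1 line. For the within-line contrast 12% and 59% were recovered, with 0 false calls over 15961 genes. CPM values use the TMM factors, except for those of CT010467.1 and of the freshly sorted libraries, which are not scaled by them. Clonotype numbers were computed by hypergeometric rarefaction to equal reads, and chromosome medians from 10026 autosomal genes with a mean of at least 3 CPM.

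The members and the 41 gene lists were chosen with earlier results of these data known. Genes were named by rule as the 10 largest called rises and falls at 5 CPM or more on average (for TX2 against TX1 also without overlap), called list members and a fixed set of genes, leaving out receptor segments, Y-linked genes, Xist and predicted genes; other named genes were chosen after their values were seen. The replicate numbers did not pair the samples. Values of 1 list member are not reported here.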

Additional observations from a re-analysis of the deposited data

Results flagged for a closer look

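In 178 groups of values (89 genes and gene lists in TX2 and in TX1), 14 had a library far from the rest of its group, and chance flags about 1 in 20. In TX2, replicate 6 was high for Grik2 at 2.48 CPM, replicate 3 was low for the Notch pathway list at a summed 2244 CPM, and replicate 7 was high for the erythroid markers at a summed 678 CPM, where the next TX2 library had 51.5 CPM. In TX1, replicate 1 stood above the other 3 libraries for Tet2 at 70.4 CPM, Trbc1 at 877 CPM, and the summed inhibitory receptors at 3281 CPM, MHC genes at 7776 CPM, regulatory T cell markers at 1575 CPM and macrophage markers at 44.1 CPM. TX1 replicate 2 was high for Hlcs at 53.8 CPM and low for Spry4 at 0.281 CPM. TX1 replicate 4 was high for Tet1 at 10.3 CPM and Fcrl5 at 0.0661 CPM, and TX1 replicate 3 for Scin at 0.0337 CPM, levels of 1 or 2 reads for both Scin and Fcrl5.

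The 2 TX2 lines lay on opposite sides of all TX1 libraries for 9 of 190 genes and lists examined, a difference that was not tested. The 190 include genes chosen after their values were seen, among them genes called in 1 line. The count is thus not a share over all genes, which was not computed. Armcx2 averaged 0.719 CPM in TX2 replicates 5 to 7 and 37.2 to 74.3 CPM in TX2 replicates 1 to 4, against 2.28 to 23.4 CPM in TX1. Gbp7 averaged 24.1 CPM in TX2 replicates 5 to 7 and 80.5 to 107 CPM in TX2 replicates 1 to 4, against 34.2 to 70.8 CPM in TX1. The B cell list averaged a summed 1222 CPM in TX2 replicates 5 to 7 and 285 to 435 CPM in TX2 replicates 1 to 4, against 701 to 923 CPM in TX1. The megakaryocyte list averaged a summed 11.7 CPM in TX2 replicates 5 to 7 and 0.140 to 0.364 CPM in TX2 replicates 1 to 4, against 0.492 to 4.88 CPM in TX1. Itgb2 averaged 283 CPM in TX2 replicates 5 to 7 and 990.5 to 1316 CPM in TX2 replicates 1 to 4, against 419 to 529 CPM in TX1. Itgal averaged 1161 CPM in TX2 replicates 5 to 7 and 2418 to 2885 CPM in TX2 replicates 1 to 4, against 1219 to 2233 CPM in TX1. Ccnd2 averaged 221 CPM in TX2 replicates 5 to 7 and 1330.0 to 1457 CPM in TX2 replicates 1 to 4, against 316 to 562 CPM in TX1. The other way round, H2-DMa averaged 19.8 CPM in TX2 replicates 5 to 7 and 2.48 to 3.22 CPM in TX2 replicates 1 to 4, against 7.31 to 13.8 CPM in TX1, and Cd163l1 166 CPM in TX2 replicates 5 to 7 and at most 0.678 CPM in TX2 replicates 1 to 4, against 3.27 to 25.8 CPM in TX1.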

How the results depend on the processing

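The count of genes called between TX2 and TX1 depended strongly on the fit. Against 6 in the analysis above, it was 1416 by DESeq2, 13 with no filter on low counts, 1694 in a fit of all 21 libraries, 664 with sex as a covariate, 839 in male libraries, 60 with the newer edgeR fit, 597 at an adjusted p below 0.10, 1496 with TX2 replicates 1 to 4 alone, 183 with TX2 replicates 5 to 7 alone, and 0 with the receptor line as a random block or with counts summed per line. The replicate block gave 486. Same-numbered samples correlated at 0.052, 0.313, −0.226 and −0.077 in their deviations and not every sample correlated best with its own number, so the numbers do not pair the samples. Leaving out 1 library gave 0 to 1318 calls. Among gene list members (0 called above) the counts were 76 by DESeq2, 87 with all 21 libraries, 23 with sex, 54 in males, 32 with the replicate block, 89 and 19 with each TX2 line alone, 3 with the newer fit, 31 at 0.10, and 0 to 88 leaving out 1 library. Within line A (332 above) they were 1423 by DESeq2, 546 without a filter, 507 with the newer fit, 3 with its 4 libraries alone, 2 with all 21 and 181 to 2392 leaving out 1 library. The 29 mitosis genes became 0 with the 4 libraries alone, with all 21 libraries and with TX1 replicate 4 in place of TX1 replicate 3. The cause was not tested.

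The log10 difference in clonotype numbers ran from −0.121 to 0.078 (TRA) and −0.0709 to 0.0397 (TRB) leaving out 1 library. Chromosome 17 was at −0.0856 over genes of at least 10 CPM. Some uncalled genes changed sign. Under the replicate block Tet1 was at 0.57, Trbc2 at 0.0132, Cd55 at −2.49 and Gata3 at 0.20. With TX1 replicate 4 alone Tet3 was at 0.0166, Trbc2 at 0.006947, Trp53 at −0.004921, Il2ra at 1.21, Gata3 at 0.51 and Mki67 at −0.45. With TX2 replicates 5 to 7 alone Trbc1 was at −9.06, Trac at −0.21, Myc at 0.0664, Zbtb16 at −0.68 and Pdcd1 at −0.48. With TX2 replicates 1 to 4 alone Trbc2 was at 0.0358 and Gata3 at 0.14. Zbtb16 was at −0.41 with the random block and Gata3 at 0.0861 in males. Leaving out 1 library, Tet1 ran from −1.762 to 1.24 (without TX1 replicate 4), Trbc2 from −0.185 to 0.0725 (without TX1 replicate 1) and Gata3 from −0.321 to 0.22 (without TX1 replicate 2). With TX1 replicate 4 in place of TX1 replicate 3, Cd4 was at 3.69 and Pak1 at 0.75.

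The labels tie no library to an animal. The line B libraries had no TX1 counterpart of the same receptor, and within line A the single TX1 library was rRNA-low, unlike its TX2 counterparts. In simulated data of independent libraries 20% of 2-fold changes between TX2 and TX1 were recovered, so most changes of that size would be missed. That simulation held no receptor-line effect, so its rates need not hold for these libraries.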
